A study of Rattus norvegicus with 2 samples.

Results

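The microRNA (miRNA) miR-126 and its partner strand miR-126*, the 2 arms of 1 hairpin, were followed in the wall of the rat carotid artery after balloon injury. Both were taken by name from the array files, as rno-miR-126 and rno-miR-126*, 2 of 350 rat miRNA features. Each was measured in an artery removed 10 days after balloon injury and in an artery that had not been injured. Both groups used male Sprague-Dawley rats weighing about 250 g. Balloon injury passes an inflated catheter through the vessel, which strips the endothelium from the inner surface and stretches the muscular wall. Total RNA was labelled with Cy3 and hybridized to a 1-colour array, with 1 array per group; the number of rats behind each is not stated in the labels. No value below has a replicate error, no test of the difference between groups could be made, and the comparisons hold for these 2 arrays.

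miR-126 is the best known miRNA of endothelial cells. Its hairpin is known to lie in an intron of Egfl7, a gene for a secreted protein of the endothelium, and it supports blood vessel growth and repair by repressing Spred1 and Pik3r2, inhibitors of growth factor signalling. In mice the opposite arm, miR-126*, represses Dlk1 and favours endothelial proliferation. Blood platelets and some blood-forming cells also carry miR-126, so it is not found in endothelium alone, and the endothelial label of the hairpin rests on this background, since no other miRNA on the array was taken to define endothelium. In RNA from a whole vessel wall, fewer cells of a type and less RNA per cell cannot be told apart.

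In the RefSeq annotation of the rat genome build GRCr8, both mature arms lie on the plus strand of chromosome 3, inside the bounds of Egfl7 (chr3:29802481-29814966, also on the plus strand). The miR-126 entry is now named miR-126a-3p and spans chr3:29813219-29813240. The miR-126* entry is now named miR-126a-5p and spans chr3:29813182-29813202. A further mature miRNA, miR-126b, is annotated on the opposite strand at chr3:29813177-29813198 and has no feature of its own name on the array. The mature sequences are shown because they tell the arms apart and bear on which RNA each named feature could bind; capitals mark the seed, bases 2 to 8, which governs target recognition.
miR-126 (miR-126a-3p): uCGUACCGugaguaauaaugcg
miR-126* (miR-126a-5p): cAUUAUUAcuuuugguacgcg
miR-126b (opposite strand): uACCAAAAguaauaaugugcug

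The 2 arms have different seeds, and neither seed occurs in another of the 693 mature rat miRNA names in the RefSeq table. Counted in single-base edits, the nearest other mature sequences lie 9 edits from the 22 bases of miR-126, among them miR-16-5p and miR-101a-3p. The nearest to the 21 bases of miR-126* is miR-29a-5p, at 8 edits. The matching feature miR-29a* was undetected on both arrays. miR-126b overlaps miR-126* over 17 bases of the locus, where the sequences are perfect complements. G and C make up 45.5% of miR-126 and 38.1% of miR-126*, against a median of 47.8% over 692 distinct mature sequences.

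miR-126 was almost as bright on the injured array as on the uninjured one. Its signal intensity was 587 in the injured artery and 592 in the uninjured artery, and it was detected on both arrays. These signals were 98.3 times the brightest undetected miRNA on the injured array and 66.9 times that on the uninjured array. As deposited, the injured value was 0.714% lower. The arm made up 0.603% of the summed miRNA signal in the injured artery and 0.620% in the uninjured artery.

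miR-126* was slightly dimmer on the injured array. Its signal intensity was 27.8 in the injured artery and 34.5 in the uninjured artery, and it too was detected on both arrays. These signals were 4.66 times the brightest undetected miRNA on the injured array and 3.90 times that on the uninjured array. As deposited, the injured value was 19.4% lower. Brightness depends on the probe as well as on the amount of RNA, so the gap in brightness between the arms is not a ratio of strands.

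**Figure D1:**
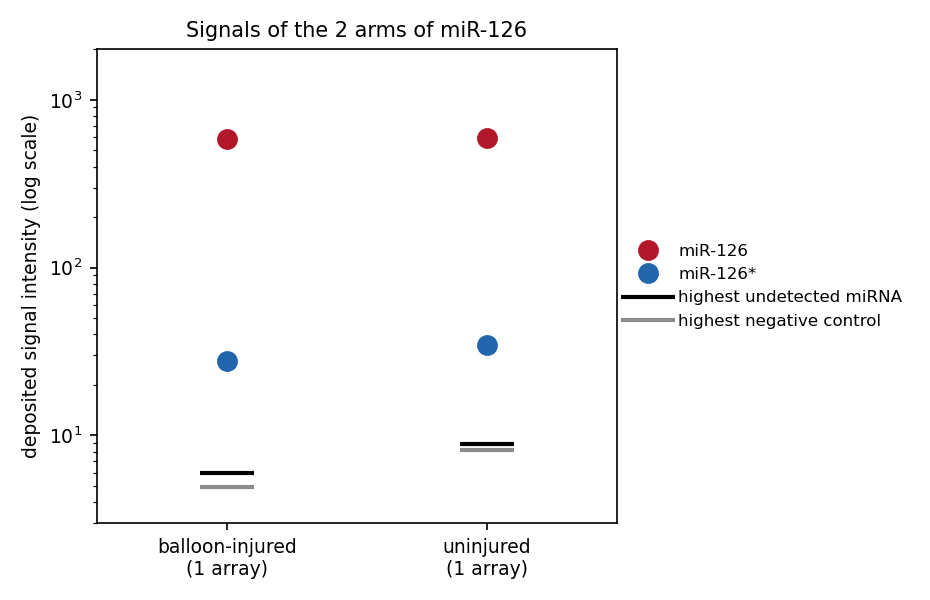
Deposited signal intensity (log scale) of miR-126 (red) and miR-126* (blue) on the injured array, left, and the uninjured array, right, with bars at the brightest undetected miRNA (black) and the brightest negative control feature (grey). miR-126 sits at 587 on the injured and 592 on the uninjured array, and miR-126* at 27.8 on the injured and 34.5 on the uninjured array, all above both bars of the same array.

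For the log2 ratio, injured minus uninjured, each array was first scaled to the 75th percentile of the log2 signals of the 158 miRNAs detected on both arrays. On that scale miR-126 had a log2 ratio of 0.08, a level 1.06-fold that of the uninjured artery. miR-126* had a log2 ratio of -0.22, which is 1.17-fold lower in the injured artery. Neither arm reached 1.5-fold in either direction on that scale, and 64.6% of the 158 miRNAs also stayed under 1.5-fold. Of the 2 arms 0 reached 2-fold. At least 2-fold higher levels in the injured artery were found for 20 of the 158 miRNAs (12.7%) and at least 2-fold lower levels for 6 (3.8%).

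The direction of the miR-126 ratio depended on the scaling. With no scaling it was -0.010, with the arrays aligned on their medians -0.37, and with 6 control features aligned -0.51. Under quantile normalization it was 0.21. It was above 0 in 3 of 10 processing settings, of which the deposited value table repeats the unscaled ratio. The ratio of miR-126* was below 0 in each of the 10, from -0.81 with the control features aligned to -0.19 with the negative control signal subtracted. In 3 of the settings miR-126* was past 1.5-fold, at 1.59-fold lower with medians aligned, 1.65-fold lower when the percentile was taken over all miRNA features and 1.76-fold lower with the control features aligned. The 6 control features were brighter on the injured array without scaling, with a median log2 ratio of 0.50, against 0.05 for the 158 miRNAs. The split of all miRNAs past 2-fold moved too: 8 were higher and 16 lower with medians aligned, 12 and 11 under quantile normalization, 7 and 20 when the percentile was taken over all miRNA features, and 7 and 23 with the control features aligned.

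**Figure D2:**
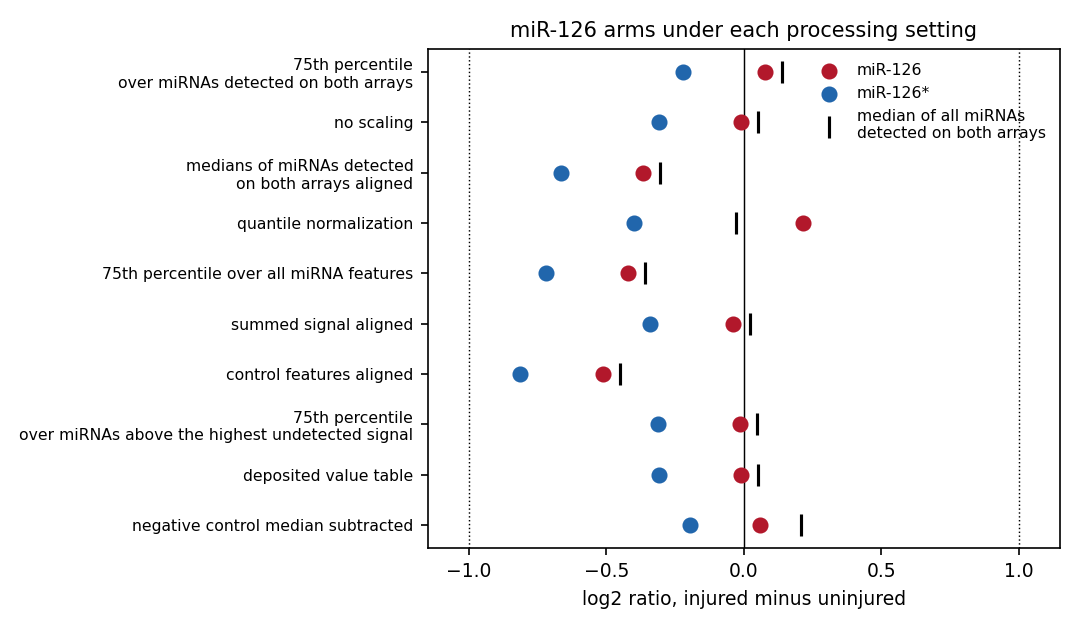
Log2 ratio, injured minus uninjured, of miR-126 (red), miR-126* (blue) and the median of all miRNAs detected on both arrays (black bar) under each processing setting, with dotted lines at 2-fold. miR-126 runs from -0.51 to 0.21 and miR-126* from -0.81 to -0.19, and neither reaches 2-fold in any setting.

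The position of an arm among the other miRNAs does not depend on a uniform scaling. The ratios of the 158 miRNAs had a median of 0.14 and quartiles of -0.14 and 0.58. miR-126 ranked 94 of 158 from the highest ratio, with 93 miRNAs above it and 64 below, and so lay within the quartiles. miR-126* ranked 127, with 126 above it and 31 below, and lay under the lower quartile. Set against the median of all miRNAs, miR-126 stood at -0.06 and miR-126* at -0.36, values that a uniform scaling cannot change. Under quantile normalization miR-126 stood at 0.24 and ranked 41, whereas miR-126* stood at -0.37 and ranked 123.

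Each arm was also set beside miRNAs of like brightness, after the 158 had been split by mean log2 signal into 4 groups of near-equal size. miR-126 fell in the brightest group, where 40 miRNAs had a median log2 ratio of 0.09 and quartiles of -0.10 and 0.33. Its own 0.08 was close to that median. miR-126* fell in the next to dimmest group, where 39 miRNAs had a median of 0.27 and quartiles of -0.18 and 0.73. Its -0.22 lay just under the lower quartile, and ratios around miR-126* were more widely spread than those around miR-126.

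**Figure D3:**
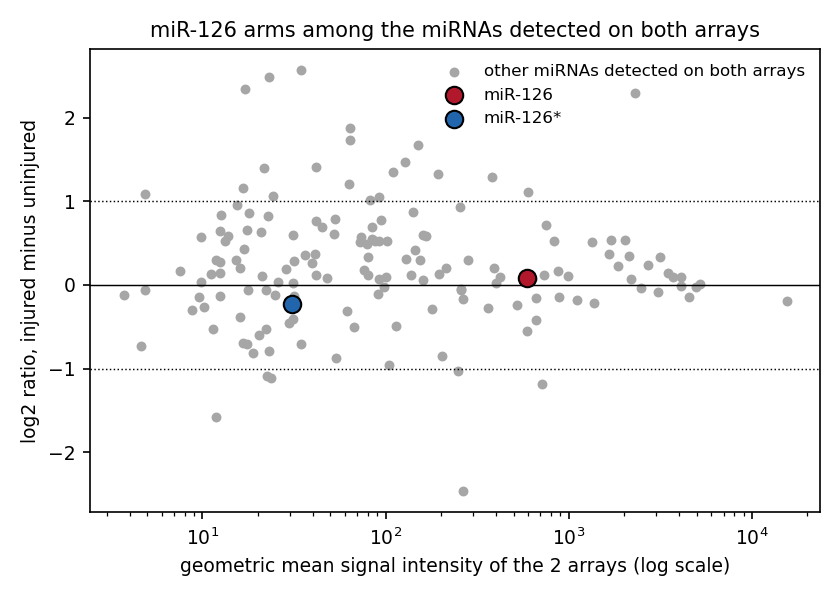
Log2 ratio, injured minus uninjured, against the geometric mean signal of both arrays (log scale) for the 158 miRNAs detected on both, with dotted lines at 2-fold. miR-126 (red) lies at 0.08 in a bright, narrow part of the cloud and miR-126* (blue) at -0.22 in a dimmer, wider part.

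The arms of a hairpin are cut from the same precursor. As for any pair of features, the difference between their ratios is free of any uniform scaling between arrays. A constant factor in the brightness of either probe also cancels. The log2 ratio of miR-126* minus that of miR-126 was -0.30, a 1.23-fold gap between strands. It was -0.61 under quantile normalization, which rescales dim and bright features by different amounts, and -0.25 with the negative control signal subtracted.

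The array held 86 pairings of 2 arms, and in 20 of them both arms were detected on both arrays. In the pairings of miR-30c-2 and miR-24-2 the main arm is shared by several hairpins, so their arms need not come from a single precursor. Across these 20 the absolute difference between arms ran from 0.11 to 1.19 log2 units, and its median was 0.40, between quartiles of 0.33 and 0.55. The miR-126 hairpin had the fourth smallest difference, with 3 hairpins below it and 16 above. In 2 of the 20, miR-30b and let-7d, a signal of the dimmer arm lay under the brightest undetected miRNA of its array, and among the other 18 the miR-126 hairpin had 2 below it. Of all 20, the 2 smallest were those of miR-30b (0.11) and miR-30a (0.25), and the 2 largest those of miR-136 (0.94) and miR-28 (1.19). Its neighbours in this order were miR-22, with a difference of 0.29, and miR-324, with 0.32. Of 14 pairings that named a star strand, the star strand had the lower ratio in 8, miR-126* among them.

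**Figure D4:**
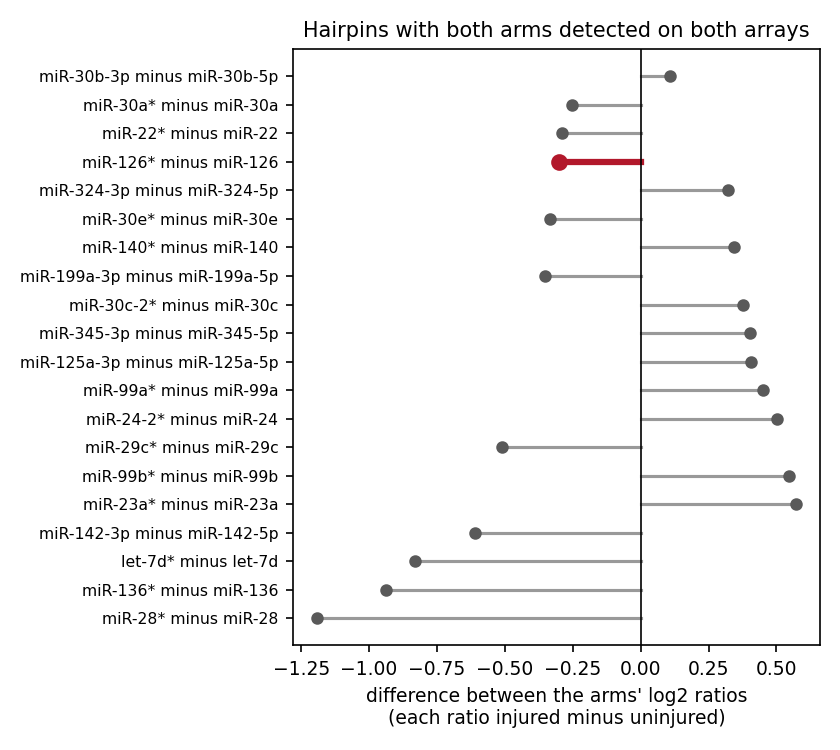
Difference between the log2 ratios of the 2 arms (each injured minus uninjured) for the 20 pairings with both arms detected on both arrays, ordered by absolute size from the top. The miR-126 hairpin (red) is the fourth from the top at -0.30, and the largest absolute difference is 1.19, for miR-28.

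The miRNAs whose change was most like that of each arm were found by the absolute difference in log2 ratio, over the 2 arrays. For miR-126 they were miR-27b, with signals of 2180 in the injured and 2197 in the uninjured artery, miR-185, with 47.6 in the injured and 47.9 in the uninjured artery, and miR-652, with 91.1 in the injured and 92.1 in the uninjured artery. Their ratios were 0.08, 0.08 and 0.07. For miR-126* they were miR-26b, with signals of 1236 in the injured and 1531 in the uninjured artery, miR-30c, with 465 in the injured and 582 in the uninjured artery, and miR-143, with 13992 in the injured and 17014 in the uninjured artery. Their ratios were -0.22, -0.24 and -0.19. With 2 arrays this likeness is weak: 28 of the other 157 miRNAs lay within 0.1 of miR-126 and 18 within 0.1 of miR-126*.

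Markers of other cells of the vessel and the blood were set beside the miR-126 arms. In smooth muscle, the main cell of the arterial wall, both markers were detected on both arrays, with a summed signal of 14466 in the injured and 17749 in the uninjured artery. miR-143, a regulator of the contractile state, had a log2 ratio of -0.19, and its neighbour miR-145 had -0.55. The difference from the ratio of miR-126 was -0.27 for miR-143 and -0.63 for miR-145.

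The red-cell miRNAs were taken as markers of blood that came with the tissue, and the blood content itself was not tested. Both were detected on both arrays, with a summed signal of 125 in the injured and 677 in the uninjured artery. miR-451, needed for red-cell maturation, was 5.53-fold lower in the injured artery, and miR-144, from the same transcript, was 2.16-fold lower. Both miR-126 arms had higher ratios than either.

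Leukocyte markers were mostly brighter in the injured artery, with 5 of 6 ratios above 0 (4 with the control features aligned, where miR-342-3p moved to -0.40). Ratios above 0 were common among all miRNAs on this scale, whose median was 0.14, beside 1.22 for the leukocyte markers. With the control features aligned these medians were -0.45 for all miRNAs and 0.63 for the leukocyte markers. One marker, miR-146a, is also on the list of endothelial roles below. All 6 on the array were detected on both arrays, with a summed signal of 636 in the injured and 316 in the uninjured artery, and at least 2-fold higher levels were found for 3, beside 12.7% of all miRNAs. miR-142-5p, made throughout the blood lineage, was the highest at 5.61-fold, and miR-150, of mature lymphocytes, was the lowest with a log2 ratio of -0.50. The uninjured signal of miR-142-5p, 10.0, was close to the brightest undetected one of that array, 8.84. Of the 6, 5 had a higher ratio than miR-126, beside 93 of the 158 miRNAs detected on both arrays. The ratio of miR-150 was lower than that of miR-126*, as were those of 31 of the 158. The part of blood cells, platelets included, in the miR-126 signals was not tested.

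Among striated-muscle miRNAs 4 of 6 were detected on both arrays, from miR-1 with a log2 ratio of -1.58 to miR-499 with -0.29, and the summed signal was 200.4 in the injured and 432 in the uninjured artery. The injured signals of miR-1, 6.64, and miR-499, 7.73, were close to the brightest undetected one of that array, 5.98. miR-206 and miR-208 were undetected on both arrays. Of 8 nerve miRNAs 2 were detected on both arrays, miR-128 with a ratio of 0.36 and miR-338 with -0.85, and aligning the control features moved miR-128 to -0.23. A further 5 were detected in the uninjured artery only and 1, miR-219-5p, in the injured artery only. Of all 350 miRNA features, 184 were detected on the injured array, 166 on the uninjured array and 158 on both. The 5 were higher in the uninjured artery by at least 1.17-fold (miR-9) to at least 8.74-fold (miR-137). These bounds, on the 75th-percentile scale, were set against the brightest undetected signal of the injured array. The uninjured signal of miR-9, 7.43, lay under the brightest undetected one of its own array, 8.84. The nerve list summed to 228 in the injured and 441 in the uninjured artery. Of 7 epithelial miRNAs only miR-205 was detected, with signals of 20.8 in the injured and 11.4 in the uninjured artery, and the list summed to 26.7 in the injured and 19.6 in the uninjured artery.

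**Figure D5:**
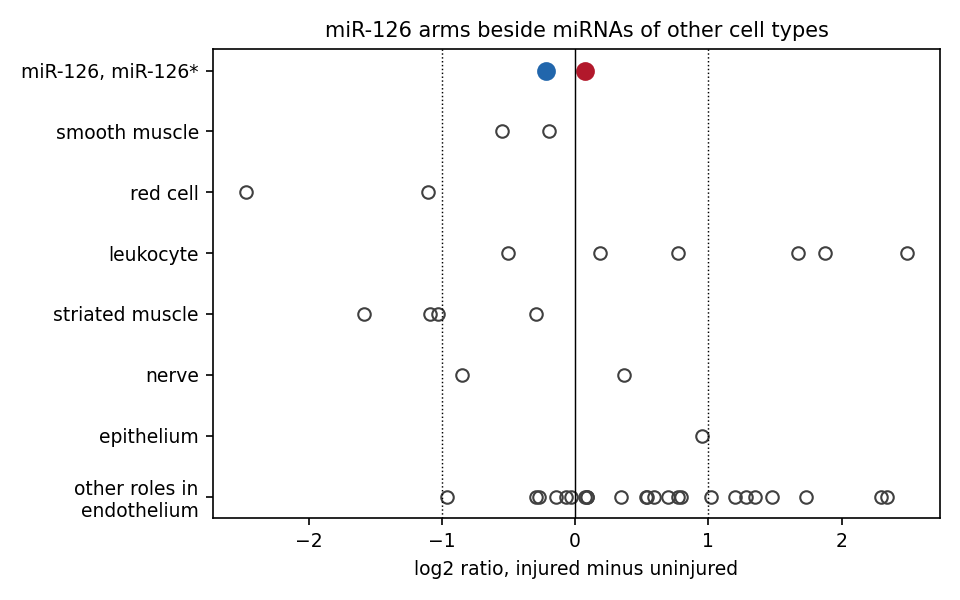
Log2 ratio, injured minus uninjured, of miR-126 (red) and miR-126* (blue) above the members of each marker list detected on both arrays (open circles), with dotted lines at 2-fold. The miR-126 arms lie at 0.08 and -0.22, the red-cell miRNAs both lie below -1, and 3 leukocyte miRNAs lie above 1.

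Other miRNAs act in endothelial cells without being restricted to them. From general knowledge, and with earlier results of these data known, 30 of these were listed. The shares below therefore only describe this list, and members of the same cluster are not independent of each other. Of the 29 on the array, 24 were detected on both arrays, 3 in the injured artery only and 2 on neither. Over all 350 miRNA features, 158 were detected on both arrays, among 184 on the injured array and 166 on the uninjured array. At least 2-fold higher levels in the injured artery were found for 8 of the 24 (33.3%) and lower ones for 0, beside 12.7% and 3.8% of all miRNAs. The median log2 ratio was 0.57, beside 0.14 over all miRNAs. A higher ratio than that of miR-126 was found for 17 of the 24, beside 93 of all 158 miRNAs. With the control features aligned, 3 of the 24 were at least 2-fold higher and 1 lower, beside 4.43% and 14.6% of all miRNAs, and the median was -0.03, beside -0.45 over all miRNAs. A uniform scaling of that kind cannot change how many lie above miR-126. Under quantile normalization, which can, 14 of the 24 had a higher ratio than miR-126.

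Among the highest was miR-17-5p, a member of the miR-17-92 cluster that restrains vessel sprouting, with signals of 37.1 in the injured and 7.78 in the uninjured artery and a log2 ratio of 2.34, but its uninjured signal lay under the brightest undetected one of that array, 8.84. Set against 8.84 its ratio was at least 2.16, so its place above miR-21 is not fixed. miR-21, which responds to flow in endothelium and to growth signals in smooth muscle, had signals of 4915 in the injured and 1065 in the uninjured artery and a ratio of 2.29. miR-20a, of the miR-17-92 cluster, had a ratio of 1.73. These 3 were at least 2-fold higher in each of the 8 scalings compared for this list.

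Between 2-fold and 3-fold higher were the clustered miR-221 and miR-222, repressors of the stem cell factor receptor in endothelium (log2 ratios of 1.47 and 1.02), miR-19b (1.35), miR-31 (1.28) and miR-92a (1.20), an inhibitor of vessel growth. Each of these 5 was under 2-fold in at least 1 of the scalings. At the low end were miR-218 with -0.96, which represses Robo receptors, miR-10a-5p with -0.29, known for damping endothelial inflammation, and miR-100 with -0.27, a repressor of mTOR. miR-218 was at least 2-fold lower in the other 7 scalings.

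The 3 detected in the injured artery only were miR-19a, miR-132, which promotes endothelial growth, and miR-503. Against the dimmest detected signal of the uninjured array, or the miRNA's own signal where brighter, they were 4.62-fold, 5.51-fold and 4.93-fold higher. Undetected signals of that array reached 8.84, above its dimmest detected signal of 3.43, so these folds are not lower bounds. Against the brightest undetected signal of that array they were at least 4.26-fold, 2.14-fold and 1.91-fold higher. All of these values hold for the 75th-percentile scaling. With the control features aligned the last 3 were 2.83-fold, 1.42-fold and 1.27-fold.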

How the data were processed

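The array files, as deposited by the authors, hold 1 signal intensity and 1 flag per feature on a linear scale. Per the labels' protocols, RNA was extracted with Trizol and labelled with an Agilent miRNA reagent; scanner software and background correction are not stated there. The flag was read as detection, since none of the 7 negative control features carried it on either array. On each array 109 miRNAs stood at exactly 1. That value is not a floor, since other signals lay below it, such as miR-32 at 0.029 on the injured array and miR-30d* at 0.052 on the uninjured array. The value table deposited by the authors holds a linear ratio that equalled injured over uninjured intensity for 349 of 349 shared names, within a relative tolerance of 1e-05.

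Detected miRNAs numbered 184 on the injured and 166 on the uninjured array, with summed signals of 97479 on the injured and 95491 on the uninjured array. Log2 intensities were scaled, per array, by the 75th percentile of the 158 miRNAs detected on both (intensities of 377 on the injured and 401 on the uninjured array), which raised each log2 ratio by 0.09. Arms were paired by name. The uniform scalings were tested on simulated data, which did not cover quantile normalization or subtraction of the negative controls. The size of the offset itself was checked only without scaling and with the control features aligned. Python 3.11.15, numpy 2.4.6 and pandas 2.3.3 were used, with edlib for edit distances. Sequences and coordinates come from RefSeq (GRCr8), matched for 2 of 2 arms. RefSeq files both arms under the gene symbol Mir126b and miR-126b under Mir126a. The members, lists and naming rules (3 nearest ratios, ends of each list, neighbours among hairpins) were chosen with earlier results of these data known. The number of arrays limits the precision.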

Additional observations from a re-analysis of the deposited data

How the results depend on the processing

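No alternative brought either miR-126 arm to 2-fold, and with 1 array per group none of them measures replicate error. The log2 ratio of miR-126 was -0.010 without scaling and in the deposited value table, -0.014 with the 75th percentile over miRNAs above the highest undetected signal and -0.040 with the summed signal aligned. It was -0.37 with medians aligned, -0.42 with the percentile over all miRNA features, -0.51 with control features aligned, 0.21 under quantile normalization and 0.058 with the negative control median subtracted. In these settings, in the same order, miR-126* had -0.31 in the first 3, then -0.34, -0.67, -0.72, -0.81, -0.40 and -0.19. The difference between the arms was -0.30 without scaling, in the deposited value table and under each uniform scaling, none of which can change it. Both settings able to change it did so: it was -0.61 under quantile normalization and -0.25 with the negative controls subtracted. The last setting was added after the data had been seen. Which setting is nearer the RNA content was not tested. No paired analysis was possible because each group holds 1 array.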
